A study of Mus musculus with 39 samples.

Results

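The mouse Cyp4a genes encode cytochrome P450 enzymes that hydroxylate the end carbon of fatty acids, and 6 of them were read here in kidney and liver: Cyp4a10, Cyp4a12a, Cyp4a12b, Cyp4a14, Cyp4a31 and Cyp4a32, out of 24537 genes in the table of kidney, liver and lung. The 6 genes were chosen by name with their kidney and liver values already known, so those values are given as a description with no test. The libraries came from male C57BL/6 mice that all carried Prf1-/-, a deletion of perforin, the pore-forming protein of cytotoxic lymphocytes, so young and control mice lacked it too. Young mice were 3 months old and untreated (n = 4, in skin n = 3). Old mice were 20 months old and had been given either vehicle (n = 3) or ABT-737, a small molecule that blocks BCL-2 family survival proteins (n = 3, 25 mg/kg), on consecutive days once a month from 18 months of age. Age is therefore read only in perforin-deficient animals, and the young mice received no vehicle injections. There were 39 libraries in all, 10 each from kidney, liver and lung and 9 from skin, made from RNA of whole perfused tissue by 3′-end sequencing.

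Cyp4a enzymes sit in the endoplasmic reticulum, take electrons from cytochrome P450 reductase and hydroxylate fatty acids at the omega position, the first step of a route that goes on through alcohol and aldehyde dehydrogenases to dicarboxylic acids and peroxisomal oxidation. In the kidney they are known for turning arachidonic acid into 20-hydroxyeicosatetraenoic acid, which acts on vessel tone and salt transport. Cyp4a10 and Cyp4a14 are textbook targets of PPAR-alpha, the fatty acid-sensing nuclear receptor of liver and proximal tubule, whereas Cyp4a12a is known as a male-biased, androgen-dependent enzyme of mouse kidney and liver.

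All 6 genes lie in a cluster on chromosome 4 (GRCm38). Cyp4a12a (NM_177406) runs from 115299046 to 115332815, Cyp4a12b (NM_172306) from 115411624 to 115439034, Cyp4a10 (NM_010011) from 115518287 to 115533649, Cyp4a31 (NM_001252539) from 115563649 to 115579015 and Cyp4a32 (NM_001100181) from 115600938 to 115622366, all on the plus strand, and Cyp4a14 (NM_007822) from 115486200 to 115496141 on the minus strand. To show how alike the members are toward the 3′ end, from which the libraries were read, the last 60 coding bases, stop codon included, are given for each gene from the GENCODE vM21 transcripts, 5′ to 3′ on the coding strand. Capitals mark bases that differ from Cyp4a10 in Cyp4a31, Cyp4a32 and Cyp4a14, and from Cyp4a12a in Cyp4a12b.
Cyp4a10, chr4:115532640-115532699: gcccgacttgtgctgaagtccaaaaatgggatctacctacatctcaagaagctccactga
Cyp4a31, chr4:115578045-115578104: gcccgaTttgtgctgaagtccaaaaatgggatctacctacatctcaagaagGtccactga
Cyp4a32, chr4:115621543-115621602: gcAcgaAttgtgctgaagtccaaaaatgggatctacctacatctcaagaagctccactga
Cyp4a14, chr4:115487143-115487202: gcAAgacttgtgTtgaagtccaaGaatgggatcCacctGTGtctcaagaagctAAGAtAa
Cyp4a12a, chr4:115331943-115332002: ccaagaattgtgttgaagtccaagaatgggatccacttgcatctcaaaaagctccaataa
Cyp4a12b, chr4:115438166-115438225: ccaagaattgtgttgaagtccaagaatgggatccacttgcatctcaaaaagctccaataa
Cyp4a31 and Cyp4a32 each differed from Cyp4a10 at 2 of these 60 bases and Cyp4a14 at 13, while Cyp4a12b did not differ from Cyp4a12a.

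The stretch coding the heme-binding signature, which holds the cysteine that ligates the iron, is shown because it is the catalytic feature that the 6 genes share. It crosses the junction of exons 11 and 12 in every gene, so the coordinates include an intron. Capitals again mark differences from Cyp4a10, whose 30 bases were the same in Cyp4a31 and Cyp4a32. Cyp4a12b was the same as Cyp4a12a.
Cyp4a10, chr4:115529502-115532543: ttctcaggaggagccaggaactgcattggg
Cyp4a12a, chr4:115328986-115331846: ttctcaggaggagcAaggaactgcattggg
Cyp4a14, chr4:115487299-115489805: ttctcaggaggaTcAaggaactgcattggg
Over the whole coding sequence, Cyp4a12a and Cyp4a12b were 98.5% identical. Cyp4a10 was 97.2% identical to Cyp4a32 and 96.6% to Cyp4a31. Cyp4a14 was the most distant, at 74.8% to 76.0% of any other member. In the last 500 transcript bases, 167 of 451 windows of 50 bases in Cyp4a12a (37.0%) had an exact copy in Cyp4a12b, 27 of 451 in Cyp4a10 (5.99%) had one in Cyp4a31, and none in Cyp4a14 had one in any other member. Over whole transcripts the shares were higher, at 48.9% of Cyp4a12a windows and 15.3% of Cyp4a10 windows for the same pairs. Cyp4a32 held a copy of 25% of Cyp4a10 windows and 15.5% of Cyp4a31 windows, and 34.8% of its own windows had one in Cyp4a10. The 3′ end of Cyp4a32 was not compared, since the transcript model read here ends at its stop codon and the counted model runs on. In the last 500 bases of that shorter model, 301 of 451 windows (66.7%) had an exact copy in another member. Reads of Cyp4a12a and Cyp4a12b, and to a lesser extent of Cyp4a10 and Cyp4a31, could therefore be assigned to either gene of the pair, and their values are uncertain in that way, as those of Cyp4a32 may be, whereas Cyp4a14 can be told apart at its 3′ end. In kidney libraries Cyp4a10 had 784 to 1878 counts and Cyp4a32 at most 2. In liver ABT-737 replicate 4, Cyp4a10 had 500 counts and Cyp4a31 had 6. How reads were shared between members was not tested.

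Kidney libraries held 1431814 to 3513311 counts and liver libraries 223957 to 891116, so a liver value rests on fewer counts. The shallow ones were vehicle replicate 3 with 223957 counts and ABT-737 replicate 3 with 267345. Liver vehicle replicate 3 also stood apart in albumin (Alb), the main hepatocyte transcript, which stood at 8907 CPM (a count scaled to a common library size, with TMM factors within a tissue) against 30297 to 41155 in the other 9 liver libraries. The summed level of the 11 hepatocyte markers in the table did not set that library apart, at 80661 CPM against 79022 to 109528 CPM in the other 9. Kidney markers checked the tissue labels: Kap, the androgen-regulated protein of proximal tubule, had 0 counts in every liver library and 348 to 714 CPM in kidney, and Umod, the uromodulin of the thick ascending limb, had at most 1 count in a liver library.

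In liver, all 5 members that passed the expression filter were lower on average in old vehicle-treated mice than in young mice, and higher in ABT-737-treated old mice than in vehicle-treated ones. Cyp4a10 was at 225, 224, 588 and 288 CPM in the young livers, at 21.8, 55.0 and 39.8 CPM in the vehicle livers and at 598, 948 and 253 CPM in the ABT-737 livers. The vehicle libraries lay below every young and every ABT-737 library, and the young and ABT-737 ranges overlapped. The means were 331 ± 174 CPM (SD, n = 4), 38.9 ± 16.6 CPM (n = 3) and 600 ± 348 CPM (n = 3). On the fitted scale the difference of ABT-737 from vehicle was a log2 fold change of 3.83 (SE 0.507), 14.2-fold, and that of vehicle from young was -2.97 (SE 0.483), 7.86-fold lower. Without vehicle replicate 3 these log2 fold changes were 3.67 and -2.80.

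Cyp4a14, the other classical PPAR-alpha target of the family, was read at 27.1, 14.9, 140 and 53.7 CPM in young liver. In vehicle liver it had 0, 30 and 1 counts, or 0, 35.1 and 1.28 CPM, and in ABT-737 liver 151, 154 and 61.9 CPM. The ABT-737 libraries were all above the vehicle libraries, while young and vehicle ranges overlapped through vehicle replicate 4. A count of 0 at the depth of vehicle replicate 3 allows up to 13.1 CPM, taking 3 counts as the floor, for counting error only. The log2 fold change was 2.93 (SE 0.817) for ABT-737 against vehicle and -1.91 (SE 0.799) for vehicle against young. Vehicle replicate 4 set the size of both: without it they were 6.63 and -5.60, values that rest on a single count in the other vehicle libraries. Without vehicle replicate 3 they were 2.69 and -1.66, without vehicle replicate 5 they were 2.29 and -1.25, and without young replicate 3, the highest young library, the second was -0.99.

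Cyp4a32, nearly identical to Cyp4a10 in its coding sequence, was low in liver. Its counts were 10, 6, 11 and 10 in young, 1, 5 and 4 in vehicle and 5, 13 and 1 in ABT-737 libraries. Vehicle libraries lay below all young ones at 4.36, 5.85 and 5.14 CPM, and ABT-737 libraries lay on both sides of them. The log2 fold change was 1.53 (SE 0.656) for ABT-737 against vehicle and was 0.81 without ABT-737 replicate 4. Cyp4a31 did not pass the filter in liver, with 4, 11, 13 and 3 counts in young, 0, 20 and 0 in vehicle and 4, 6 and 1 in ABT-737 libraries. Its highest liver count was in vehicle replicate 4, the library that also held 30 of the 31 vehicle counts of Cyp4a14.

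**Figure D1:**
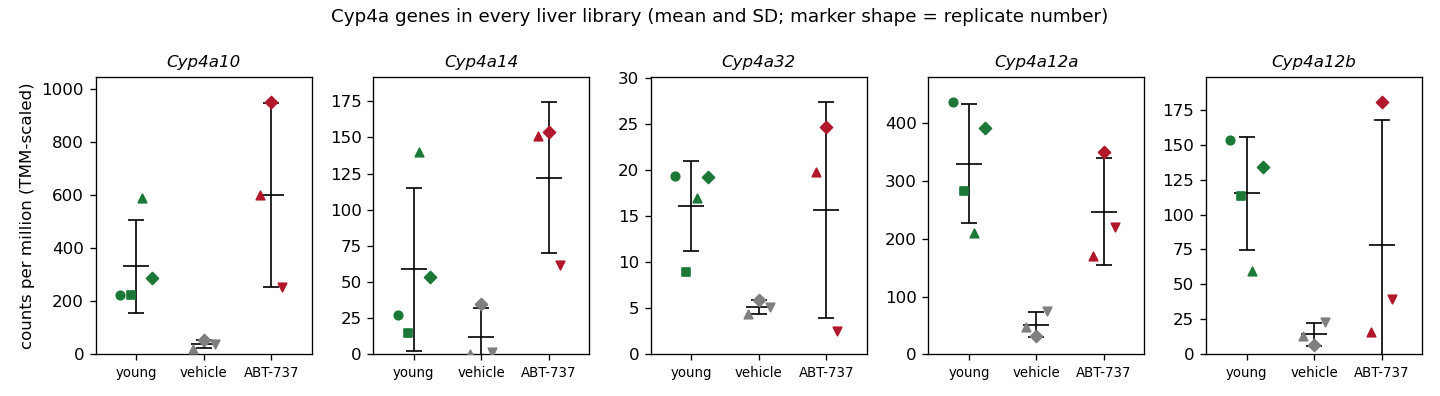
Level of 5 Cyp4a genes in each liver library, in TMM-scaled CPM on linear axes that start at 0, for young, vehicle and ABT-737 mice; points are libraries, shaped by replicate number, and bars are the mean and SD (n = 4, 3 and 3). Cyp4a10 and Cyp4a12a show all 3 vehicle libraries below all others, at 21.8 to 55.0 and 31.6 to 74.5 CPM.

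In the male-biased pair vehicle was again the lowest group in liver, while the mean was higher in young than in ABT-737 livers. Cyp4a12a was at 436, 282, 210 and 391 CPM in young, at 48.0, 31.6 and 74.5 CPM in vehicle and at 170, 349 and 220 CPM in ABT-737 libraries. All vehicle libraries lay below all others, and the young and ABT-737 ranges overlapped. The log2 fold change was 2.27 (SE 0.378) for ABT-737 against vehicle, 4.82-fold, and -2.66 (SE 0.363) for vehicle against young, 6.34-fold lower; without vehicle replicate 3 they were 2.26 and -2.63. Cyp4a12b, its near-identical neighbour, was at 153, 113, 59.9 and 134 CPM in young, 13.1, 7.02 and 23.1 CPM in vehicle and 15.9, 180 and 39.6 CPM in ABT-737 libraries. Here the ABT-737 and vehicle ranges overlapped, and ABT-737 replicate 4 carried much of the difference, since the log2 fold change of 2.55 (SE 0.683) was 1.03 without that library. For vehicle against young it was -2.95 (SE 0.636), 7.75-fold lower, with no overlap. Without vehicle replicate 3 the 2 values were 2.57 and -2.92, and without vehicle replicate 5, the highest vehicle library, 3.33 and -3.72. Against young, ABT-737 livers differed by log2 fold changes of 0.86 (SE 0.398) for Cyp4a10, -0.40 (SE 0.315) for Cyp4a12a, -0.41 (SE 0.507) for Cyp4a12b, 1.02 (SE 0.638) for Cyp4a14 and 0.00 (SE 0.486) for Cyp4a32, with ranges that overlapped for all 5. Single libraries moved these values: without ABT-737 replicate 4, Cyp4a12b was at -1.93 and Cyp4a32 at -0.72, and without young replicate 3 Cyp4a14 was at 1.95.

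In kidney the members did not follow that order. Cyp4a10 was at 370, 425, 530 and 712 CPM in young, 473, 620 and 844 CPM in vehicle and 403, 929 and 490 CPM in ABT-737 libraries, with all ranges overlapping. The log2 fold change was -0.09 (SE 0.294) for ABT-737 against vehicle and 0.34 (SE 0.274) for vehicle against young. Cyp4a31, near-identical to Cyp4a10, was at 289, 370, 471 and 364 CPM in young, 358, 339 and 388 CPM in vehicle and 348, 507 and 372 CPM in ABT-737 libraries. Its log2 fold changes were 0.18 (SE 0.184) and -0.05 (SE 0.172) in the same comparisons. Cyp4a32 had at most 2 counts in any kidney library.

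Cyp4a14 and Cyp4a12a varied more between kidney libraries. Cyp4a14 was at 5.15, 9.65, 14.1 and 6.92 CPM in young kidney, at 8.64, 49.9 and 106 CPM in vehicle kidney and at 15.9, 8.41 and 6.75 CPM in ABT-737 kidney. Vehicle replicates 4 and 5 were above every other library, and vehicle replicate 3 lay within the young range. The log2 fold change was 2.54 (SE 0.545) for vehicle against young and -2.39 (SE 0.623) for ABT-737 against vehicle, and without vehicle replicate 5 these were 1.55 and -1.40. The sign of both differences was opposite to that in liver, and the difference between the tissues was not tested.

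Cyp4a12a was at 177, 138, 105 and 175 CPM in young kidney, at 469, 93.0 and 125 CPM in vehicle kidney and at 253, 597 and 457 CPM in ABT-737 kidney. All ABT-737 libraries were above all young libraries, with a log2 fold change of 1.56 (SE 0.411), 2.94-fold. Vehicle replicate 3 was the vehicle library in the ABT-737 range, and with it left out the log2 fold change for vehicle against young went from 0.64 (SE 0.413) to -0.44, and that for ABT-737 against vehicle from 0.91 (SE 0.442) to 2.0. Cyp4a12b, at 37.7, 28.7, 40.1 and 30.5 CPM in young, 74.2, 39.7 and 62.9 CPM in vehicle and 29.3, 42.1 and 34.8 CPM in ABT-737 kidney, went the other way, with -0.75 (SE 0.227) for ABT-737 against vehicle. The near-identical pair thus had opposite signs in that comparison. With their counts summed the log2 fold change was 0.70, since most of the summed counts were those of Cyp4a12a.

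**Figure D2:**
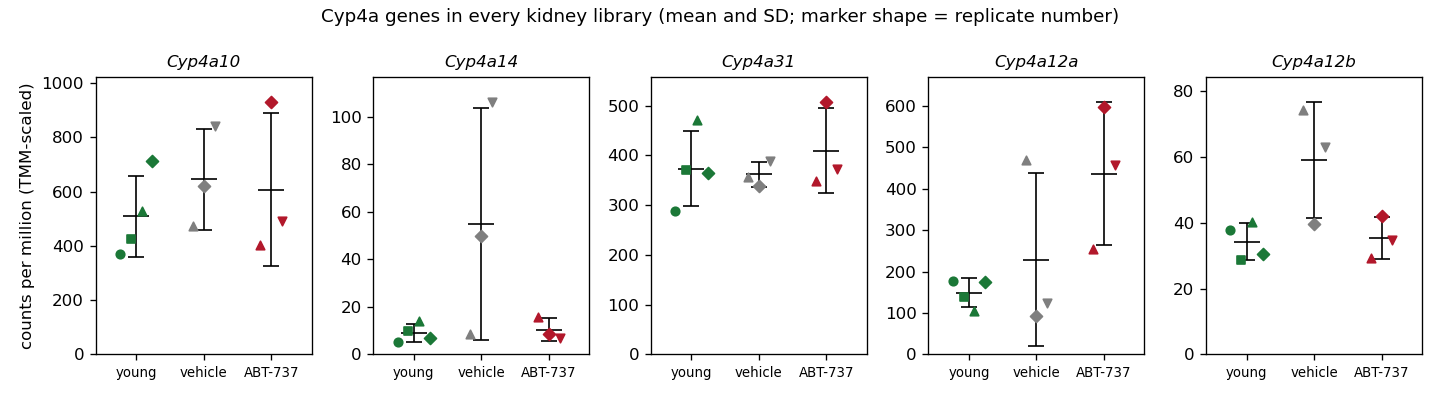
Level of 5 Cyp4a genes in each kidney library, in TMM-scaled CPM on linear axes that start at 0; points are libraries, shaped by replicate number, and bars are the mean and SD (n = 4, 3 and 3). Cyp4a14 is high in 2 of the 3 vehicle libraries, at 49.9 and 106 CPM, and Cyp4a12a in 1, at 469 CPM.

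The background of each comparison was taken from the edgeR quasi-likelihood fit over all genes tested in the tissue, at an adjusted p under 0.05 (Benjamini-Hochberg). In liver, where 5583 genes were tested, 1.0% were called higher and 2.85% lower in ABT-737 than in vehicle, 11.7% higher and 10.8% lower in vehicle than in young, and 3.13% higher and 5.27% lower in ABT-737 than in young. Cyp4a10, Cyp4a12a and Cyp4a12b were among the genes called in the first and second of these comparisons. In kidney, where 11123 genes were tested, 0.135% were called higher and 1.21% lower in ABT-737 than in vehicle, 7.75% higher and 5.50% lower in vehicle than in young, and 1.38% higher and 0.737% lower in ABT-737 than in young. Cyp4a12b and Cyp4a14 were among those higher in vehicle than in young kidney, and no other call fell on a member. Because the members were selected on these same values, nothing is read from these counts. The comparisons share their vehicle or young libraries, so an opposite sign in 2 of them is in part one set of libraries read again.

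**Figure D3:**
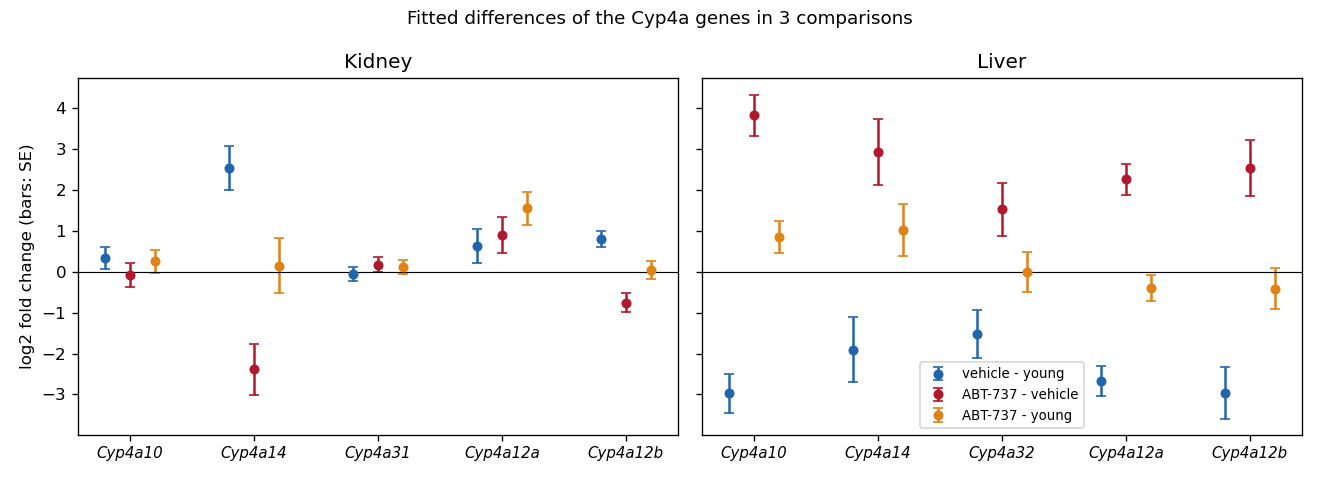
Fitted log2 fold change of each Cyp4a gene tested in kidney (left) and liver (right) for vehicle against young, ABT-737 against vehicle and ABT-737 against young; bars are the standard error. In liver all 5 genes lie below 0 for vehicle against young and above 0 for ABT-737 against vehicle, while in kidney Cyp4a14 has the opposite signs, at 2.54 and -2.39.

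Across tissues, levels were set side by side as CPM of each library's total, without TMM scaling, within the 1 table that holds kidney, liver and lung. Cyp4a31 was a kidney gene here, at 363 to 395 CPM of total counts in the 3 kidney groups against 7.86 to 12.3 CPM in the 3 liver groups, with no overlap between kidney and liver libraries. Cyp4a32 had the reverse order, at 4.95 to 15.8 CPM in the liver groups and at most 0.502 CPM in the kidney groups. Cyp4a10 ran from 648 ± 190 CPM in vehicle kidney through 586 ± 267 CPM in ABT-737 kidney, 565 ± 326 CPM in ABT-737 liver, 513 ± 143 CPM in young kidney and 327 ± 173 CPM in young liver to 37.5 ± 16.7 CPM in vehicle liver. Each of the first 5 of these groups overlapped its neighbour, and vehicle liver overlapped none. For Cyp4a12a the order was ABT-737 kidney, young liver, ABT-737 liver, vehicle kidney, young kidney and vehicle liver, from 420 ± 163 to 48.7 ± 16.6 CPM, and vehicle liver was again the group with no overlap with its neighbour. For Cyp4a12b it was young liver at 113 ± 38.6, ABT-737 liver at 74.0 ± 83.5, vehicle kidney at 58.9 ± 16.7, young kidney at 34.6 ± 5.95, ABT-737 kidney at 34.1 ± 5.83 and vehicle liver at 13.6 ± 6.56 CPM. For Cyp4a14 it was ABT-737 liver at 115 ± 48.9, young liver at 58.1 ± 55.9, vehicle kidney at 55.2 ± 49.0, vehicle liver at 12.2 ± 20.1, ABT-737 kidney at 10.1 ± 4.89 and young kidney at 9.11 ± 4.17 CPM, with each group overlapping the next. Within young kidney the means were 513 CPM of total counts for Cyp4a10, 379 for Cyp4a31, 150 for Cyp4a12a, 34.6 for Cyp4a12b and 9.11 for Cyp4a14. They were not divided by gene length, since 3′-end counts do not scale with it.

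Lung and skin, tissues that the choice of genes did not use, gave almost no counts, and no member passed the filter there. In 10 lung libraries Cyp4a12b had 0 to 7 counts, Cyp4a10 0 to 4 and Cyp4a12a 0 to 2, and Cyp4a14, Cyp4a31 and Cyp4a32 had none. In 9 skin libraries no member had more than 3 counts, and Cyp4a12a and Cyp4a12b had none. The skin table is separate, and its models of these genes end further downstream, so skin levels were not set against the others. Of the other Cyp4a genes, Cyp4a29 and Cyp4a30b were at 0 counts in every kidney, liver and lung library.

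The genes most like each member were found as the smallest root-mean-square difference of mean-centred log2(CPM + 1) over the 10 libraries of a tissue, a description only. In liver, Cyp4a10 lay nearest to Acsl1, a long-chain acyl-CoA synthetase (0.957), Acot1, a cytosolic acyl-CoA thioesterase (0.959), and Sucnr1, the succinate receptor (0.974). Cyp4a14 lay nearest to Cyp4a10 (1.12) and Cyp4a12b to Cyp4a12a (0.632). Cyp4a12a lay nearest to Mcm10, a DNA replication factor (0.358), Keg1 (0.470) and the glucuronosyltransferase Ugt2a3 (0.565), and Cyp4a32 to Gm4952 (0.472). In kidney, Cyp4a12a lay nearest to the acetyltransferase family gene Nat8f5 (0.402), Pzp (0.487) and Azgp1 (0.489), and Cyp4a14 to Kcnip2, a potassium channel-interacting protein (0.501), BC089597 (0.625) and Kynu, the kynureninase (0.632).

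PPAR-alpha target genes other than Cyp4a were read as the setting of Cyp4a10 and Cyp4a14. In liver, 48 of 64 listed genes were tested. Of these, 11 rose and none fell in ABT-737 against vehicle, where 1.0% and 2.85% of all genes tested did. Their median log2 fold change was 0.63, against -0.03 over all genes tested. Acot1 was at 30.5, 21.1 and 15.4 CPM in vehicle and 107, 235 and 54.5 CPM in ABT-737 livers, and rose by a log2 fold change of 2.72 (SE 0.501, edgeR adjusted p = 0.00522). Fabp1, the fatty acid-binding protein of hepatocytes, rose by 1.96 (SE 0.478, edgeR adjusted p = 0.0308), Acsl1 by 1.87 (SE 0.281, edgeR adjusted p = 0.00137) and Cidec, a lipid droplet protein, by 2.24 (SE 0.503, edgeR adjusted p = 0.0183). Ppara itself, at 170, 164 and 153 CPM in vehicle and 325, 294 and 238 CPM in ABT-737 livers, rose by 0.82 (SE 0.220) at an edgeR adjusted p = 0.0493, just inside the threshold. Other well-known targets did not pass: Cpt1a, the mitochondrial carnitine palmitoyltransferase, had -0.10 (edgeR adjusted p = 0.957), Ehhadh 0.34 (0.795), Angptl4 0.80 (0.467), Plin2 0.10 (0.958) and Creb3l3 0.34 (0.539). Vnn1, Pdk4 and Fgf21 did not pass the expression filter in liver. The count of 11 rested on single libraries: leaving out vehicle replicate 3 gave 21, leaving out vehicle replicate 4 gave 5, and leaving out replicate 3 or replicate 4 of ABT-737 gave 5 and 1, and with only the 2 groups fitted it was 3.

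In vehicle against young liver, 16 of the 48 fell and 1 rose, with a median log2 fold change of -0.66 against 0.02 over all genes tested. Of all genes tested there, 10.8% fell and 11.7% rose. The largest falls were Lpin1, the phosphatidate phosphatase, at -2.21 (SE 0.348, edgeR adjusted p = 0.000397), the dienoyl-CoA reductase Decr1 at -1.69 (SE 0.356, edgeR adjusted p = 0.00325) and Etfdh at -1.65 (SE 0.345, edgeR adjusted p = 0.00311). Fabp1 fell by 1.53 (SE 0.452, edgeR adjusted p = 0.0229), and Cidec was the gene that rose, by 2.17 (edgeR adjusted p = 0.0443). Acot1 stood at -1.33 (edgeR adjusted p = 0.0653). Without vehicle replicate 3, 23 fell and none rose, and without replicate 3 or 4 of young 10 fell. In ABT-737 against young liver, 5 rose and 4 fell, where 3.13% and 5.27% of all genes tested did, with a median of 0.30 against 0.00 for all genes. The count of 9 was 16 without vehicle replicate 3 and 4 without replicate 3 or 4 of ABT-737. Acot1 rose by 1.39 (edgeR adjusted p = 0.0428) and Cidec by 4.42 (edgeR adjusted p = 0.000627), while Decr1 fell by 1.25 (edgeR adjusted p = 0.0454) and Etfdh by 1.75 (edgeR adjusted p = 0.00854).

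In kidney, 55 of the 64 were tested, and none passed in ABT-737 against vehicle by edgeR (1 by DESeq2, 9 at an unadjusted p under 0.05, and 2 rose and 2 fell without vehicle replicate 3), with a median of 0.04 against 0.01 for all genes. In vehicle against young kidney 9 rose and 7 fell, where 7.75% and 5.50% of all genes tested did, with a median of 0.11. Angptl4, an inhibitor of lipoprotein lipase, was at 100, 78.8, 112 and 67.4 CPM in young and 187, 544 and 148 CPM in vehicle kidney and rose by 1.69 (SE 0.376, edgeR adjusted p = 0.00707). Pdk4, the kinase that restrains pyruvate dehydrogenase, rose by 2.42 (edgeR adjusted p = 0.0134) and Acot1 by 1.05 (edgeR adjusted p = 0.00905), while the fatty acid transporter Cd36 fell by 1.20 (edgeR adjusted p = 0.0140) and Acadm, the medium-chain acyl-CoA dehydrogenase, by 0.79 (edgeR adjusted p = 0.00970). Pdk4 and Angptl4 peaked in vehicle replicate 4, whereas Cyp4a14 peaked in vehicle replicate 5, so the highest library was not the same. The count of 16 was 9 without either vehicle replicate 4 or vehicle replicate 5. In ABT-737 against young kidney 4 rose, among them Pdk4, G0s2 and Acsl1, and none fell, where 1.38% and 0.737% of all genes tested did. The count was 0 when any 1 young library or ABT-737 replicate 4 was left out. It was 1 without vehicle replicate 5 or ABT-737 replicate 3 and 7 without vehicle replicate 4.

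**Figure D4:**
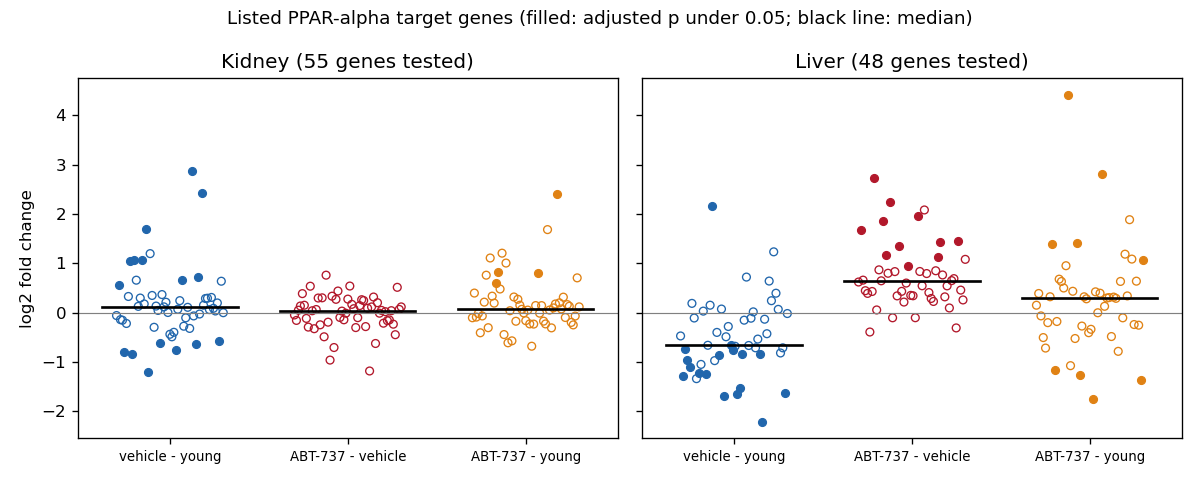
Log2 fold change of each listed PPAR-alpha target gene tested in kidney (left, 55 genes) and liver (right, 48 genes) in 3 comparisons; filled circles passed an adjusted p under 0.05, open circles did not, and the black line is the median. In liver the median lies at -0.66 for vehicle against young and 0.63 for ABT-737 against vehicle, and in kidney within 0.11 of 0 in all 3.

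The core recognition letters of nuclear receptors, AGGTCA, were looked for as exact matches on either strand of the RefSeq promoter windows (GRCm38.p6, 250 bases before to 50 after the start). Of the members only Cyp4a32 had a window in the table, and it held none. Among the listed PPAR-alpha targets, 15 of 53 windows (28.3%) held them, against 16% of all 27025 windows, and none held the exact direct repeat with a 1-base spacer of these letters, which 0.0444% of all windows held. A looser form of the repeat was found in 1 of the 53 windows (1.89%), that of Fabp1, against 0.381% of all windows. These are matches of letters and were not tied to binding.

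Other enzymes of the family and of the steps after omega hydroxylation were read from lists of their own. Of 15 listed Cyp4 relatives, 5 were tested in each tissue. In liver none passed in ABT-737 against vehicle by edgeR or DESeq2, with 1 at an unadjusted p under 0.05, and 1 rose without vehicle replicate 3. Cyp4f14 fell by 0.94 (SE 0.239, edgeR adjusted p = 0.0108) and Cyp4v3 by 2.98 (SE 0.376, edgeR adjusted p = 7.34e-05) in vehicle against young liver, and Cyp4v3 also fell in ABT-737 against young liver, by 2.33 (edgeR adjusted p = 0.00211). In kidney Cyp4f18, a family member known from leukocytes, rose by 3.68 in vehicle against young (edgeR adjusted p = 1.47e-05) and fell by 1.90 in ABT-737 against vehicle (edgeR adjusted p = 0.0170), and Cyp4f15 rose by 1.51 in vehicle against young (edgeR adjusted p = 0.0392). The rise of Cyp4f15 did not pass without young replicates 2, 3 or 4 or vehicle replicates 3 or 5, each left out in turn. The fall of Cyp4f18 did not pass with only the 2 groups fitted, without vehicle replicate 4 or without replicate 3 or 4 of ABT-737. Cyp4b1, a kidney-rich fatty acid and xenobiotic hydroxylase, was at 3776 to 5997 CPM in vehicle and 6321 to 8620 CPM in ABT-737 kidney, with a log2 fold change of 0.68 that did not pass (edgeR adjusted p = 0.111).

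Of the genes for omega oxidation and dicarboxylic acid steps, 18 of 21 were tested in liver, where 1 rose in ABT-737 against vehicle (3 without vehicle replicate 3, and none when any other library was left out) and 5 fell in vehicle against young. Over all genes tested in liver, 1.0% rose in the first of these comparisons and 10.8% fell in the second. The riser was Aldh3a2, the fatty aldehyde dehydrogenase, with a log2 fold change of 1.16 (edgeR adjusted p = 0.0466). The fallers included the peroxisomal transporter Abcd3 at -1.98 (edgeR adjusted p = 9.18e-05) and the carnitine octanoyltransferase Crot at -2.06 (edgeR adjusted p = 0.00763). In kidney 16 were tested, none passed in ABT-737 against vehicle by edgeR (2 by DESeq2, 6 at an unadjusted p under 0.05), and 1 rose and 2 fell in vehicle against young (none fell without vehicle replicate 4 or 5). There 7.75% of all genes tested rose and 5.50% fell, so these kidney counts are not read as a result. Of 13 arachidonate epoxygenases and epoxide hydrolases, 10 were tested in liver. There 8 fell in vehicle against young, Cyp2c29 the most, at -2.76 (SE 0.531, edgeR adjusted p = 0.00173), and 2 rose in ABT-737 against vehicle, Ephx2, the soluble epoxide hydrolase, by 1.28 (edgeR adjusted p = 0.0488) and Ephx1 by 1.19 (edgeR adjusted p = 0.0270). The count of 2 was 0 when any 1 ABT-737 library was left out and 5 without vehicle replicate 5. Median log2 fold changes in ABT-737 against vehicle and in vehicle against young liver were 0.41 and -0.67 for the omega oxidation genes, 0.68 and -1.59 for the epoxygenases and hydrolases and 0.26 and -0.57 for the 5 Cyp4 relatives, and in kidney they were 0.21 and -0.21, 0.23 and -0.37 and 0.07 and 0.50.

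Other groups of genes differed between the liver groups as well, some in the direction of the Cyp4a members and some in the opposite one. Of 15 male-biased liver genes tested, 5 rose and none fell in ABT-737 against vehicle (8 rose without vehicle replicate 3, but 1 when ABT-737 replicate 4 was left out), and 10 fell and none rose in vehicle against young. Over all genes tested, 1.0% rose and 2.85% fell in the first comparison, and 11.7% rose and 10.8% fell in the second. Hsd3b5, a male-specific steroid dehydrogenase, was at 284 to 352 CPM in young, 0 to 13.1 CPM in vehicle and 19.8 to 98.6 CPM in ABT-737 livers and rose by 4.76 (SE 0.718, edgeR adjusted p = 0.00137) in ABT-737 against vehicle. The summed level of the 20 male-biased genes in the table was 11818, 16247 and 24013 CPM in vehicle and 25672, 29594 and 21570 CPM in ABT-737 livers, with Serpina1e the most abundant and 1 to 3 of the genes at 0 in a library. Of 21 acute-phase genes, 15 rose in vehicle against young and 12 fell in ABT-737 against vehicle, opposite in sign to the members. The count of 12 dropped to 1 or 4 when ABT-737 replicate 4 or 5, respectively, was left out. Their summed level was 43479, 109328 and 139025 CPM in vehicle livers and 25728 to 46180 CPM in the other 7, so that vehicle replicate 3 lay within that range. Hpx was the most abundant.

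Leukocyte markers also had signs opposite to those of the liver members. All 10 tested in liver rose in vehicle against young and fell in ABT-737 against vehicle (6 fell without ABT-737 replicate 4), with log2 fold changes in the second of -3.22 for Ccl5 (edgeR adjusted p = 0.000205) and -3.18 for Cd74 (edgeR adjusted p = 0.000200). Summed over 26 markers in the table, they were at 6795, 6011 and 3528 CPM in vehicle livers and 500 to 1307 CPM in the other 7, with H2-Aa the most abundant and 1 to 14 of the markers at 0 in a library. In whole-tissue RNA, fewer cells of a type and less RNA per cell cannot be told apart. None of 11 hepatocyte markers passed in ABT-737 against vehicle liver by edgeR (1 by DESeq2, 1 at an unadjusted p under 0.05, and 2 rose without vehicle replicate 3), and 1 fell in vehicle against young (1 rose and 2 fell without that library). Of 11 pericentral hepatocyte genes, the zone in which Cyp4a genes are chiefly known, none passed in ABT-737 against vehicle by edgeR or DESeq2, with 3 at an unadjusted p under 0.05 and 3 or 5 that rose when vehicle replicate 3 or 5, respectively, was left out, and 5 fell in vehicle against young (8 without either library). In ABT-737 against vehicle all 11 had a log2 fold change above 0, with a median of 0.62 against -0.03 over all genes tested. Their summed level was 8392, 2194 and 6964 CPM in vehicle livers, the lowest being vehicle replicate 4, and 8499 to 13023 CPM in the others. Of 14 periportal hepatocyte genes, none passed in ABT-737 against vehicle by edgeR, with 4 at an unadjusted p under 0.05 (1 fell without vehicle replicate 3). There 6 of the 14 had a log2 fold change above 0, with a median of -0.04. In vehicle against young 1 of them rose, with a median of -0.15. There 11.7% of all genes tested rose and 10.8% fell, so the single calls of hepatocyte and periportal genes are not read as a result. Median log2 fold changes in ABT-737 against vehicle and in vehicle against young liver were 1.03 and -1.16 for the male-biased genes, -1.43 and 1.54 for the acute-phase genes, -2.28 and 2.71 for the leukocyte markers and -0.01 and -0.23 for the hepatocyte markers, and the pericentral genes had -0.95 in the second. The part of these groups in the Cyp4a values was not tested.

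In kidney, all 18 tested leukocyte markers rose in vehicle against young and 10 fell in ABT-737 against vehicle (5 without ABT-737 replicate 4). Over all genes tested, 7.75% rose and 5.50% fell in the first comparison, and 0.135% rose and 1.21% fell in the second. The leukocyte markers summed to 14058, 9649 and 7964 CPM in vehicle, 1669 to 2401 CPM in young and 3014 to 4347 CPM in ABT-737 kidneys, with H2-Ab1 the most abundant. Of 16 proximal tubule markers, the cells in which kidney Cyp4a genes are chiefly known, 6 fell in vehicle against young and 3 rose in ABT-737 against vehicle (Slc5a12, Gatm and Lrp2). The count of 3 was 0 with only the 2 groups fitted, 1 when vehicle replicate 4 or either replicate 3 or 4 of ABT-737 was left out, and 6 without vehicle replicate 3. They summed to 15737 to 19890 CPM in vehicle, 20617 to 23010 CPM in young and 21342 to 24846 CPM in ABT-737 kidneys, led by Slc34a1. Of 7 kidney injury genes tested, 5 rose in vehicle against young. None passed in ABT-737 against vehicle by edgeR (1 fell by DESeq2, 4 at an unadjusted p under 0.05, and 4 fell without vehicle replicate 3), where all 7 had a log2 fold change below 0, with a median of -0.62. The summed level was highest in vehicle replicate 4, at 2713 CPM against 1211 to 1579 CPM in the other 9 libraries. Of 15 androgen-responsive kidney genes, 1 rose and 5 fell in vehicle against young and none passed in ABT-737 against vehicle by edgeR (3 by DESeq2, 9 at an unadjusted p under 0.05). Without vehicle replicate 3, 11 fell in the first comparison and 7 rose in the second. Median log2 fold changes in ABT-737 against vehicle and in vehicle against young kidney were -1.40 and 2.41 for the leukocyte markers, 0.44 and -0.31 for the proximal tubule markers and 0.61 and -0.67 for the androgen-responsive genes, against 0.01 for all genes in both, and the kidney injury genes had 1.93 in the second. The part of these groups in the kidney Cyp4a values was not tested.

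Some clock genes, which cycle with feeding and time of day, differed between old and young mice. Of 10 tested in liver, 3 rose and 3 fell in vehicle against young and 2 rose and 2 fell in ABT-737 against young, and of 18 tested in kidney, 5 rose and 8 fell and 5 rose and 4 fell. The 8 were 4 without vehicle replicate 4 or 5. Over all genes tested in liver, 11.7% rose and 10.8% fell in vehicle against young, and 3.13% and 5.27% in ABT-737 against young. The kidney shares were 7.75% and 5.50%, and 1.38% and 0.737%. Dbp, a clock output factor, fell by 5.0 in vehicle and by 5.04 in ABT-737 against young liver (edgeR adjusted p = 2.53e-07 and 5.69e-07), and Nr1d1, a clock repressor, by 4.53 and 4.22 (edgeR adjusted p = 3.36e-05 and 0.000596). In kidney Dbp fell by 3.93 and 3.96 (edgeR adjusted p = 2.17e-09 and 2.07e-09). None of the 10 clock genes tested in liver and none of the 18 tested in kidney passed in ABT-737 against vehicle by edgeR or DESeq2, with 1 in liver and 2 in kidney at an unadjusted p under 0.05 (1 rose in liver without vehicle replicate 3). Hour of sacrifice and feeding state were not given in the sources used here, so age and the clock's state cannot be told apart in the comparisons with young mice.

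**Figure D5:**
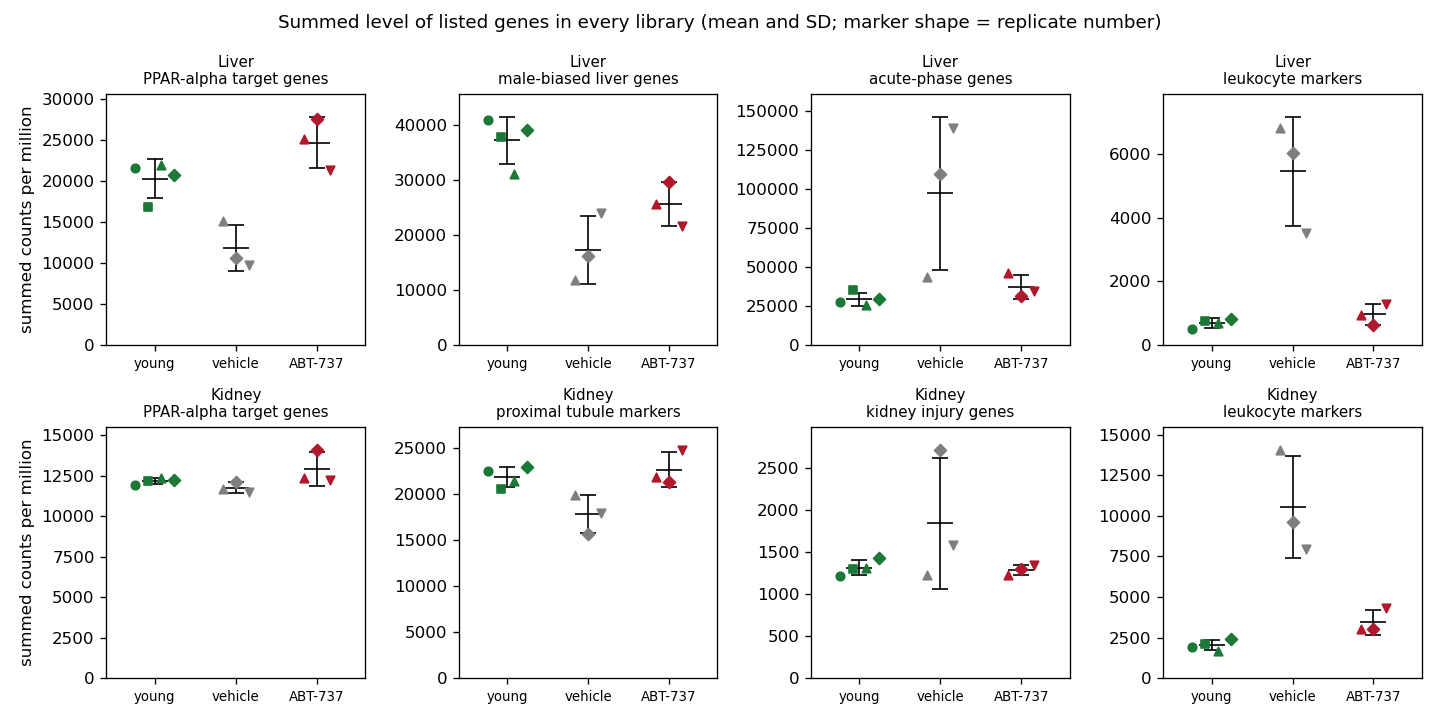
Summed TMM-scaled CPM of listed genes in each liver (top) and kidney (bottom) library, on linear axes that start at 0; points are libraries, shaped by replicate number, and bars are the mean and SD (n = 4, 3 and 3). Leukocyte markers are highest in all 3 vehicle libraries of both tissues, from 3528 CPM in liver and 7964 CPM in kidney, and in liver the PPAR-alpha target genes sum to 9833 to 15113 CPM in vehicle against 16892 to 27599 CPM in the other 7 libraries.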

How the data were processed

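The authors deposited whole-number counts per gene, not normalized, from bulk MARS-seq 3′-end libraries, in a RefSeq table (kidney, liver, lung) and a separate skin table. The submitters' processing notes name bcl2fastq, HISAT 0.1.5, HOMER and mm10. Whether molecule barcodes were collapsed, and whether counting used strand, is not given in the sources used here, so floors cover counting error only. Libraries were grouped by title. The treatment label of ABT-737 replicates 4 and 5 carries a drug number 1 or 2 higher, and those libraries were placed by title. The labels do not tie libraries to separate mice, and p-values measure the spread between libraries. Each tissue was fitted with edgeR 4.0.16 (R 4.3.3; filterByExpr with a minimum count of 10, TMM, quasi-likelihood, 3 groups in one fit, Benjamini-Hochberg over all genes tested), and the code was tested on simulated data. For ABT-737 against vehicle, the simulated run recovered 57.7% of 2-fold and 91.9% of 4-fold changes in kidney, and 19.1% and 82.3% in liver. A liver gene that did not pass may therefore still differ by 2-fold. Alternatives were DESeq2 1.42.0, DESeq2 size factors, other filters, the compared groups alone, a replicate block, summed paralogs and each library left out. The members and the 21 gene lists were chosen with earlier results of these data known. Named genes were the members, a set of PPAR-alpha targets, up to 4 called genes in each direction per list and comparison, tested Cyp4 relatives and the 3 genes most like each member whose log2 values had an SD of at least 0.5. Genes outside that rule (Ephx1, Kap, Umod, Alb, Hpx, Serpina1e, H2-Aa, H2-Ab1 and some list members) were named as markers or to account for a count. No pair of libraries agreed within counting noise. Sequences were read from GENCODE vM21 and RefSeq. Some genes that the rule names are not reported here.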

Additional observations from a re-analysis of the deposited data

How the results depend on the processing

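Under another setting, the log2 fold changes of the Cyp4a members stayed within the SD between replicates in 483 cases and moved further in 13. The 483 are not read as stability, since that SD is a wide allowance and some settings left out a library outside the comparison. A change of sign was not marked for a member that was not called. For Cyp4a10 in kidney, ABT-737 against vehicle ran from -0.53 to 0.15 over single libraries left out. Cyp4a10 and Cyp4a12a in liver kept their signs for ABT-737 against vehicle (3.33 to 4.22 and 1.93 to 2.77 over single libraries left out) and for vehicle against young. For single listed genes, 10419 values kept their side of the threshold, 728 lost it, 265 gained it and 1 reversed: Elovl3, for vehicle against young liver, went from 1.15 to -1.15 without vehicle replicate 3, and to at most 1.68 without any other single library. With each library left out in turn, genes called in kidney ranged from 57 to 471 for ABT-737 against vehicle (150 as reported), from 842 to 1885 for vehicle against young (1474) and from 107 to 308 for ABT-737 against young (236), and in liver from 44 to 529 (215), 859 to 1486 (1261) and 197 to 964 (469). PPAR-alpha targets called ranged in kidney from 0 to 4, 9 to 19 and 0 to 7, and in liver from 1 to 21, 10 to 23 and 4 to 16. In kidney, DESeq2 called 229 genes for ABT-737 against vehicle and 1 PPAR-alpha target. With no filter beyond 1 count, kidney gave 368 genes for ABT-737 against vehicle and 452 for ABT-737 against young, with 9 PPAR-alpha targets, and liver 512, 1942 for vehicle against young with 26 targets, and 750 with 15 targets. With at least 10 counts in every library, fewer genes were tested: liver gave 105, 496 and 86 genes, with 3 targets for ABT-737 against young, and kidney 1 target for ABT-737 against young. With only the groups compared, kidney gave 69 genes for ABT-737 against vehicle and 7 targets for ABT-737 against young, and liver 98 genes with 3 targets for ABT-737 against vehicle and 1102 with 21 for ABT-737 against young. The cause of these shifts was not tested. Liver depth, from 223957 counts, limits the precision of the low members.

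Pairing by replicate number was not seen in kidney or liver, though 3 same-numbered pairs per tissue cannot exclude it. Same-numbered vehicle and ABT-737 libraries correlated in their deviations at -0.18, -0.21 and 0.02 in kidney and -0.04, 0.16 and -0.02 in liver. Different-numbered ones ran from -0.18 to 0.32 in kidney and from -0.21 to 0.15 in liver. In lung, where no member was tested, same-numbered libraries correlated at 0.18, 0.30 and 0.43, and in skin at -0.57, -0.58 and 0.28. With a replicate block, kidney gave 59 genes for ABT-737 against vehicle, 369 for vehicle against young with 5 targets, and 33 for ABT-737 against young with 0 targets. Liver gave 54 with 2 targets, 291 with 2 and 39 with 1.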
